A study of Mus musculus with 2 samples.

Results

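The Hox genes were followed through 2 single-cell RNA libraries of mouse skin tumours, cell class by cell class. The members were 38 Hox genes of the 32285 genes in the count tables, taken by symbol: 10 of cluster HoxA, 10 of HoxB, 9 of HoxC and 9 of HoxD. At least 1 unique molecular identifier (UMI, a tag that marks 1 captured transcript) was counted for 35 of them, 32 had at least 20 UMIs over both libraries and 18 had at least 1000. Hoxb13, Hoxd12 and Hoxd13 had none. Hoxa13 had 1 UMI in Ctrl-D and 0 in the other library, Hoxc12 had 0 and 1, and Hoxd1 had 3 and 1. Hoxa11, Hoxb1 and Hoxc11 were rare, with 1, 11 and 5 UMIs in the Ctrl-D library and 28, 24 and 75 in the Eed iKO-D library. Hoxd10 had 10 and 121 UMIs and Hoxd11 had 22 and 3. In epithelial-like cells these were 0 and 2 for Hoxd10 and 4 and 1 for Hoxd11.

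Both libraries came from whole squamous tumours of the back skin of mice aged 5 months, cut up, digested and cleared of dead cells. Ctrl-D mice were Eed flox/flox and received ethanol and DMBA. Eed iKO-D mice were K14CrERT2;Eed flox/flox and received hydroxyl-tamoxifen and DMBA. DMBA, a chemical carcinogen of mouse skin, was thus given to both groups, weekly for up to 20 weeks, and tamoxifen or its ethanol vehicle from postnatal day 50 on 4 days. The K14 promoter drives Cre in keratinocytes of the basal layer and in their descendants, and is not meant to act in the other cell classes of a tumour. Genotype and tamoxifen differ together between the groups, and their parts cannot be told apart. The labels do not give how many animals entered a library. Each group is 1 library (n = 1), so no difference below has a replicate check, and the exact 95% intervals given take in the error of counting alone.

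Hox genes encode homeodomain transcription factors and lie in 4 clusters on different chromosomes. Their order along a cluster, from the anterior paralogues at one end to the posterior ones at the other, follows the order in which they act along the body axis, and adult skin cells keep part of this positional code. EED belongs to the core of PRC2, the Polycomb complex that methylates histone H3 at lysine 27 and is best known for keeping Hox genes silent where they are not used. The comparison asks how the Hox code of the tumour cells differs where Eed was targeted.

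Start regions of 22 members could be matched in the RefSeq promoter table for GRCm38.p6, the build also called mm10, as 24 windows of 300 bases (250 before to 50 after the annotated start): 9 genes of HoxA, 3 of HoxB, 1 of HoxC and 9 of HoxD. These windows held a median of 14.5 CpG dinucleotides, against 7 over all 32851 windows of that table, and 45.8% of them held at least 20, against 26.5% of all. CpG-dense starts are the kind of sequence at which PRC2 is known to gather. The 4 windows below are shown because their genes behaved differently in the epithelial-like cells: Hoxa5, Hoxa7 and Hoxb8 were lower in Eed iKO-D and Hoxb4 was level. They read 5′ to 3′ on the gene's strand with each CpG in capitals. Hoxa5 is chr6:52204538-52204837 on the minus strand with 29 CpG, Hoxa7 is chr6:52218524-52218823 on the minus strand with 9, Hoxb4 is chr11:96318017-96318316 on the plus strand with 14, and Hoxb8 is chr11:96281655-96281954 on the plus strand with 13.
Hoxa5: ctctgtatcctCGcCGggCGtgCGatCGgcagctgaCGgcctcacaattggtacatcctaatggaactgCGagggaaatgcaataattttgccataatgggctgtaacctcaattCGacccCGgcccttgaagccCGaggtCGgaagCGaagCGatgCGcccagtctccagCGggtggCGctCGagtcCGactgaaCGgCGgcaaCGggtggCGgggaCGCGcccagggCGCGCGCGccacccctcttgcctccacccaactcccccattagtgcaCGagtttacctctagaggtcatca
Hoxa7: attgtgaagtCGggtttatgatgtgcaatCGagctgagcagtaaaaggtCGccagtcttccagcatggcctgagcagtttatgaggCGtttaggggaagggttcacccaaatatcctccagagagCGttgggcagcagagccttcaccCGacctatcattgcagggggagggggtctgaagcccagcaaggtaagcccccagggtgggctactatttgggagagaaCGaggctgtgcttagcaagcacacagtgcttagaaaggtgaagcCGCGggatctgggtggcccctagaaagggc
Hoxb4: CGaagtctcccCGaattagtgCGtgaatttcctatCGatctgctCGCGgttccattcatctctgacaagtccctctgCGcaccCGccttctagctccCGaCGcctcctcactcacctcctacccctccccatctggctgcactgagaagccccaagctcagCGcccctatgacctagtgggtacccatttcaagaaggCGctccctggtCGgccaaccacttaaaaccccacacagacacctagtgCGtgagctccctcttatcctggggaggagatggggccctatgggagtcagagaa
Hoxb8: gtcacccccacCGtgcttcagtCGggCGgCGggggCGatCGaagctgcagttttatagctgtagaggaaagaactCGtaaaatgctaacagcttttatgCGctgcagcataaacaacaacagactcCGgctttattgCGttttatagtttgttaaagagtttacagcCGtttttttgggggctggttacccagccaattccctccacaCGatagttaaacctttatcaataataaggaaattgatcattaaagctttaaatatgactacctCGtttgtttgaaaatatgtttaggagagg
CpG number was not tested against the change in level. The Hoxa7 window lies inside the gene as GENCODE places it, with its 5′ end at 52221854, so its 9 CpG belong to the RefSeq start alone. The Hox-Pbx motif TGATTNAT, searched on both strands, lay in 2 of the 24 windows (8.33%), those of Hoxa2 and of 1 start of Hoxd11, and in 3.22% of all windows.

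The libraries differed in size and make-up. Ctrl-D held 8039 barcodes with 120500892 UMIs and Eed iKO-D 22259 barcodes with 289511009. Of 7522 and 21484 cells kept, 6239 and 7257 were assigned to a class by a gate on marker genes; the rest stayed out of the comparisons, and held 5126 Hox UMIs (Ctrl-D) and 5038 (Eed iKO-D). In Eed iKO-D 13076 of the unassigned droplets had over 25% of their UMIs from Gm42418, a transcript that overlaps ribosomal RNA, and the median unassigned droplet had 2449 UMIs. The assigned cells differed in it as well, with a median of 0.344% of UMIs from Gm42418 in Ctrl-D and 7.20% for Eed iKO-D. The libraries shared 49 barcodes. Compared between libraries were the epithelial-like cells, 5140 of Ctrl-D against 3339 of Eed iKO-D, and the fibroblast-like cells, 290 against 2247. All 15 epithelial markers were detected in the epithelial-like cells, with a summed level of 33009 CPM in Ctrl-D and 36182 CPM in Eed iKO-D. CPM, the unit of all levels here, is a gene's UMIs over all UMIs of the class, scaled to a common total. A captured transcript gives 1 UMI near its 3′ end whatever its length, so levels were not divided by length.

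Eed itself was at 53.8 CPM in epithelial-like cells of Ctrl-D and 47.1 CPM in those of Eed iKO-D. In fibroblast-like cells its level was 25.8 and 23.3 CPM. The labels do not say which exons are flanked by loxP sites, and a 3′ tag outside the deleted part checks nothing, so these values neither show nor deny the deletion.

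**Figure D1:**
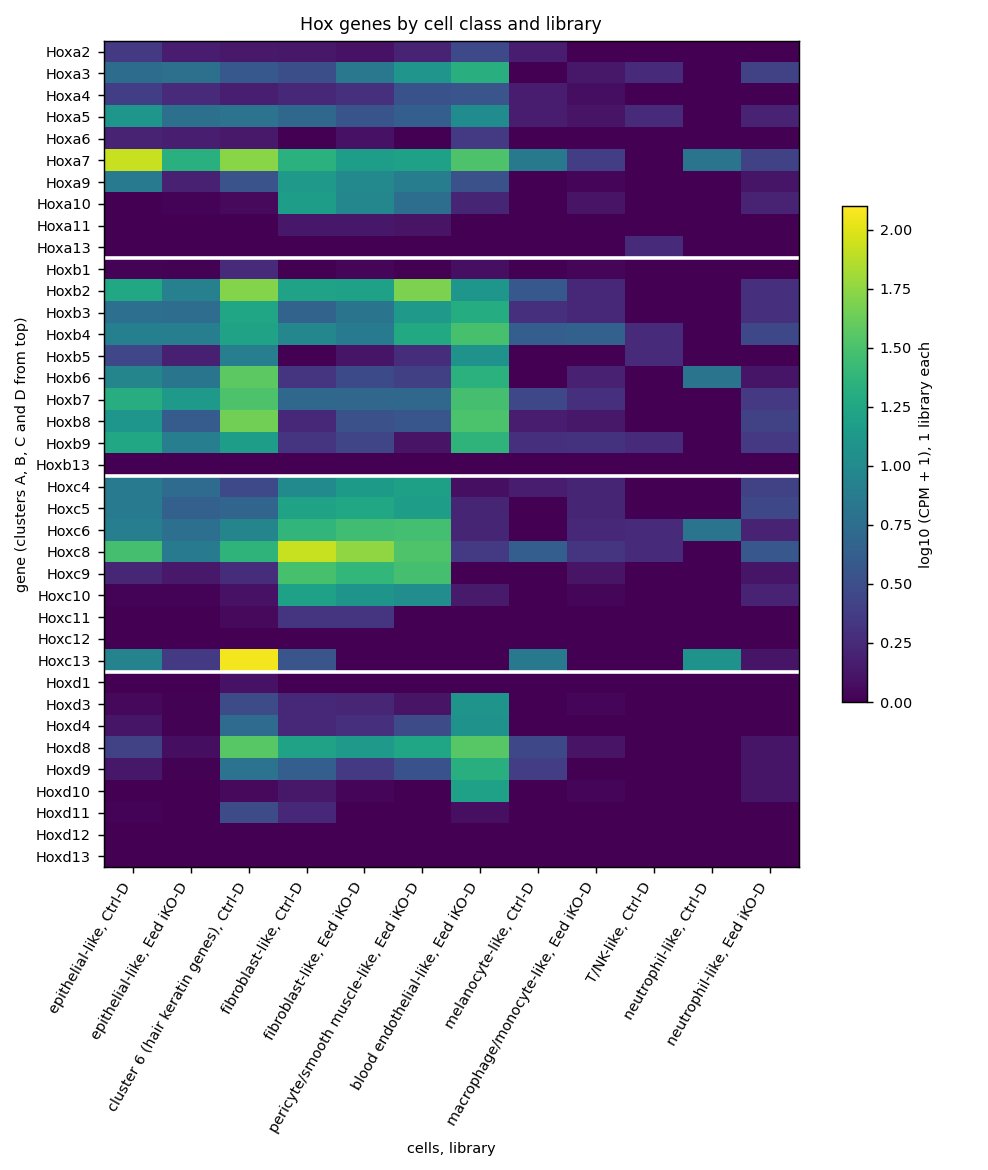
Level of each Hox gene (rows, by cluster) in each cell class of each library (columns), as log10 of CPM plus 1; every column is 1 library. Epithelial-like columns are led by Hoxa7, fibroblast-like columns by Hoxc8, cluster 6, led by hair keratin genes, by Hoxc13, endothelial-like cells hold HoxB and HoxD but little HoxC, and the immune columns hold few Hox UMIs (5 in neutrophil-like cells of Ctrl-D).

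Epithelial, fibroblast, endothelial and pericyte-like cells each had a Hox profile of their own, and immune classes had few Hox UMIs. In neutrophil-like cells, which should hold few Hox transcripts of their own, all members together came to 27.1 CPM in Ctrl-D (5 UMIs, interval 8.78 to 63.1) and 21.4 CPM in Eed iKO-D (70 UMIs, 16.7 to 27.02). Macrophage and monocyte-like cells of Eed iKO-D reached 14.6 CPM and T and NK-like cells of Ctrl-D 6.34 CPM. Plasmacytoid dendritic-like cells, 25 per library, stood higher at 60.1 CPM (8 UMIs, 25.9 to 118) in Ctrl-D and 34.8 CPM (11 UMIs, 17.4 to 62.3) in the other library, with wide intervals. The neutrophil-like values served as a rough guide to the level that free RNA in the droplets can produce. Only sums well above that level are read here as expression. The level was not the same in each class. In Ctrl-D the interval of T and NK-like cells was 2.74 to 12.5 CPM. Their median depth was 3275 UMIs, against 1284 UMIs in neutrophil-like cells. Melanocyte-like cells of Ctrl-D (median depth 7089 UMIs) were at 30.9 CPM (23.9 to 39.3). That interval overlaps the neutrophil-like one but lies above the T and NK-like one. Whether melanocyte-like cells express Hox genes was not tested.

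Epithelial-like cells of Ctrl-D had 255 CPM of Hox transcripts, of which HoxA held 42.6%, HoxB 33.9%, HoxC 22.6% and HoxD 0.958%. Hoxa7, a central paralogue, stood first at 83.0 CPM (81.2 to 84.9). Hoxc8 followed at 29.5 CPM, then Hoxb7 at 19.3, Hoxb2 at 17.2 and Hoxb9 at 16.7 CPM; the intervals of Hoxb2 (16.4 to 18.03) and Hoxb9 (15.9 to 17.5) overlap. Hoxb8 at 11.6 and Hoxa5 at 11.6 CPM did not differ beyond counting error. Central paralogues (positions 4 to 8) made up 76.6% of the Hox UMIs, anterior ones (1 to 3) 11.0% and posterior ones (9 to 13) 12.5%. Beyond position 9 Hoxc13 was the exception, with 756 UMIs: position 10 had 5 UMIs, position 11 had 4 and position 12 had 0.

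Fibroblast-like cells carried a more posterior code led by HoxC. In Ctrl-D Hoxc8 stood at 82.6 CPM (72.2 to 94.1), Hoxc9 at 29.8, Hoxc6 at 22.9, Hoxa7 at 20.7, Hoxc10 at 14.9, Hoxa10 at 13.8 and Hoxa9 at 12.4 CPM. Posterior paralogues made up 27.9% of the Hox UMIs of Ctrl-D fibroblast-like cells and 23.3% of those of Eed iKO-D. Hoxa10 and Hoxc10, which place cells toward the rear trunk and hindlimb, were at 0.0102 and 0.0408 CPM in the epithelial-like cells of the same library, from 1 and 4 UMIs.

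Blood endothelial-like cells, 213 in Eed iKO-D, had 340 CPM of Hox transcripts (324 to 357). HoxB held 51.4% of it, HoxD 27.1%, HoxA 20.6% and HoxC 0.941%. Hoxd8 stood at 35.0 CPM, Hoxa7 at 31.8, Hoxb8 at 30.9, Hoxb4 at 29.9, Hoxd9 at 19.8 and Hoxd10 at 14.9 CPM. Hoxc8, Hoxc6 and Hoxc9 were at 1.28, 0.640 and 0 CPM there, and were not told apart from free RNA. The 13 such cells of Ctrl-D gave 39 Hox UMIs, of which 19 were HoxD and 0 HoxC, too few for a comparison. Pericyte and smooth muscle-like cells of Eed iKO-D (165 cells) had 281 CPM, with HoxC at 45.5%. Their leading gene was Hoxb2 at 47.7 CPM (40.7 to 55.7), which directs anterior identity in the hindbrain, followed by Hoxc8 at 32.0, Hoxc9 at 29.1 and Hoxc6 at 28.8 CPM, 3 genes whose intervals overlap.

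Hoxc13, the Hox gene needed for hair shaft keratins, was the leading Hox gene of a cluster led by hair keratin genes. Cluster 6 of the unsupervised clustering, led by Krt25, Krt35, Krt71 and Krt28, held 520 Ctrl-D cells and 9 Eed iKO-D cells. Hoxc13 reached 114 CPM there (107 to 122), the highest Hox level of that cluster, beside Hoxa7 at 52.1, Hoxb2 at 50.03, Hoxb8 at 43.7, Hoxb6 at 36.4 and Hoxd8 at 34.8 CPM. In hair follicle stem-like cells of Ctrl-D (199 cells) Hoxc13 was at 41.3 CPM, and Hoxc8 at 88.2 CPM was above Hoxa7 at 77.5 CPM. In suprabasal-like cells of Ctrl-D Hoxc13 was at 4.87 CPM, Hoxc8 at 16.2 and Hoxa7 at 57.6 CPM. The clusters were formed with all variable genes, so these values describe them and are no test. Hair follicle stem-like cells numbered 199 (Ctrl-D) and 7 (Eed iKO-D), and hair matrix-like cells 28 and 0. The gated hair matrix-like cells of Ctrl-D did not share the high Hoxc13 of cluster 6. Their HoxC genes together came to 13 UMIs, or 26.0 CPM (13.8 to 44.4), and HoxB to 210 CPM. In Ctrl-D epithelial-like cells also had more of the summed hair follicle stem markers (2004 against 935 CPM, 10 of 10 detected in both). The part of this in the Hoxc13 difference below was not tested.

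Between the libraries, the epithelial-like cells of Eed iKO-D had less of most Hox transcripts. All members together were at 255 CPM in Ctrl-D (252 to 259) and 102 CPM in Eed iKO-D (99.9 to 103), a ratio of 0.398 (0.389 to 0.406), or 0.410 with Gm42418 left out of the totals. Of the 24 members with at least 20 UMIs over both libraries, 17 were at least 1.5 times lower in Eed iKO-D, 0 were at least 1.5 times higher and 7 were neither. Over all 19683 genes measured so, 15.9% were at least 1.5 times lower and 40.2% at least 1.5 times higher. The median log2 ratio was -1.22 over the measured members and 0.37 over all genes. The other 14 members had too few UMIs. Hoxd4 and Hoxd9 passed the minimum through Ctrl-D, with 5 UMIs each in Eed iKO-D.

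**Figure D2:**
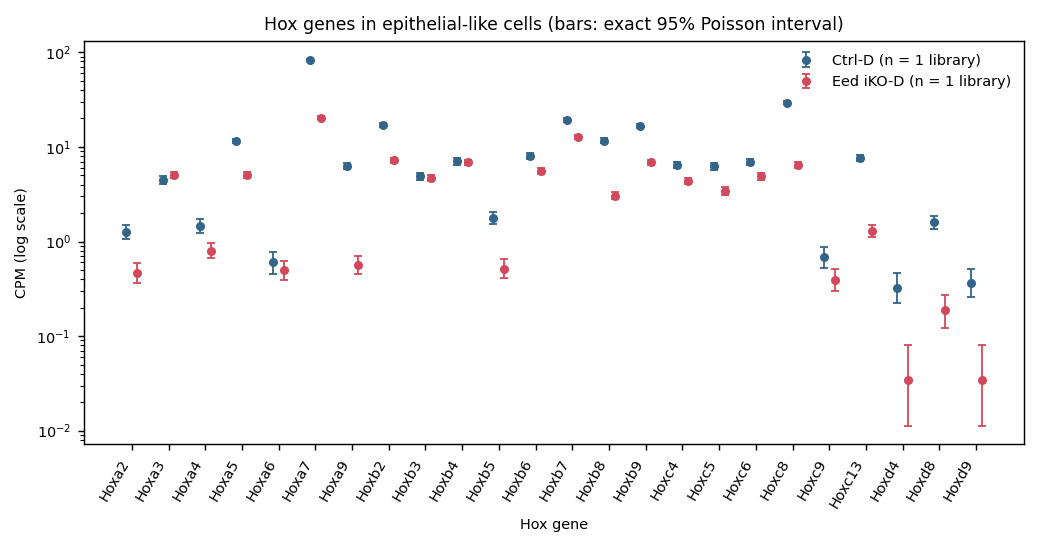
CPM (log axis) of the 24 measured Hox genes in epithelial-like cells of Ctrl-D (blue) and Eed iKO-D (red), 1 library each, with exact 95% Poisson intervals. Hoxa7 lies at 83.0 and 20.4 CPM and Hoxa9 at 6.29 and 0.566 CPM, while Hoxa3, Hoxb3 and Hoxb4 lie at about the same height in both libraries.

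Within HoxA the summed level was 109 CPM in Ctrl-D and 32.8 CPM in Eed iKO-D, a ratio of 0.302 (0.292 to 0.312). Hoxa7 went from 83.0 CPM in Ctrl-D to 20.4 CPM in Eed iKO-D, 4.07 times lower (3.90 to 4.25). Hoxa9, the most posterior HoxA gene of these cells and a known leukaemia oncogene, was at 6.29 CPM in Ctrl-D and 0.566 CPM in Eed iKO-D, 11.1 times lower (8.81 to 14.2). Hoxa5 was at 11.6 and 5.02 CPM, Hoxa2 at 1.26 and 0.470 CPM, and Hoxa4 at 1.46 and 0.801 CPM. Hoxa3 was level at 4.47 and 5.02 CPM, as was Hoxa6 at 0.601 and 0.497 CPM, both with intervals of the ratio that include 1. Hoxa3 overlaps Hoxa4, Hoxa5 and Hoxa6 on the same strand in the annotation without shared exon bases, so how its intronic reads were divided is uncertain.

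Within HoxB the ratio of summed levels was nearer to 1, at 0.549 (0.531 to 0.566), from 86.6 to 47.5 CPM. Hoxb3 was at 4.90 and 4.68 CPM and Hoxb4, which acts in blood stem cells, at 7.02 and 6.86 CPM, both ratios with intervals that include 1. Hoxb6 at 8.07 and 5.52 CPM was lower beyond counting error but by less than 1.5 times. Hoxb7 was at 19.3 and 12.7 CPM, 1.52 times lower. Hoxb2 was at 17.2 and 7.27 CPM, Hoxb5 at 1.78 and 0.518, Hoxb8 at 11.6 and 3.06, and Hoxb9 at 16.7 and 6.89 CPM. The neighbours along the cluster therefore differed: level genes at positions 3 and 4 lay between lower genes at positions 2 and 5.

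Within HoxC the ratio was 0.363 (0.347 to 0.379), from 57.6 to 20.9 CPM. Hoxc8 was at 29.5 CPM in Ctrl-D and 6.47 CPM in Eed iKO-D, 4.56 times lower (4.23 to 4.91). Hoxc13 was at 7.70 and 1.28 CPM. Hoxc4 at 6.48 and 4.38 CPM and Hoxc6 at 6.98 and 4.88 CPM were lower by less than 1.5 times, and Hoxc5 at 6.25 and 3.41 CPM by more. Hoxc9, at 0.683 and 0.394 CPM from 67 and 57 UMIs, was also lower by more than 1.5 times. Hoxc5 overlaps Hoxc6, Hoxc8, Hoxc9 and Hoxc10 on the same strand and shares 166 exon bases with Hoxc10, so its own value is uncertain. HoxD was low in both libraries, at 2.45 and 0.297 CPM. Hoxd8 accounted for most of it with 156 and 27 UMIs, or 1.59 and 0.187 CPM. In neutrophil-like cells of Eed iKO-D HoxD was at 0.917 CPM (0.189 to 2.68, from 3 UMIs). The epithelial HoxD level of Eed iKO-D was thus not told apart from free RNA. All 3 measured HoxD members are among the lower ones counted above. Hoxd3 and Hoxd4 share 388 exon bases and cannot be held apart.

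By paralogue position, the sum at position 7 was 102 CPM in Ctrl-D and 33.1 CPM in Eed iKO-D, at position 8 it was 42.7 and 9.71 CPM, and at position 9 it was 24.0 and 7.89 CPM. Position 3, at 9.49 and 9.71 CPM, was level. Anterior paralogues were 11.0% of the Hox UMIs of Ctrl-D and 17.2% of those of Eed iKO-D, central ones 76.6% and 73.6%, and posterior ones 12.5% and 9.17%. The posterior genes that were nearly undetected in Ctrl-D stayed so in Eed iKO-D: position 10 was at 0.0510 and 0.117 CPM, position 11 at 0.0408 and 0.0138 CPM, and position 12 at 0 and 0.00691 CPM.

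Shares of cells with a UMI were compared after each cell was thinned to 5000 UMIs, which left out 378 (Ctrl-D) and 217 cells (Eed iKO-D). A Hoxa7 UMI was then present in 33.0% of epithelial-like cells of Ctrl-D (31.7 to 34.4) and 9.19% of those of Eed iKO-D (8.20 to 10.3). For Hoxc8 the shares were 14.2% and 3.49%, and for Hoxb7 9.28% and 5.41%. A UMI of any Hox gene was found in 69.8% and 36.0%. Without thinning the shares were 63.4% and 25.6% for Hoxa7, 33.5% and 15.6% for Hoxc8, and 25.9% and 32.2% for Hoxb7, at median depths of 16406 and 35489 UMIs. In thinned neutrophil-like cells of Eed iKO-D, whose median depth before thinning was 5569 UMIs, Hoxa7 was found in 1.16%, Hoxc8 in 1.45% and any Hox gene in 9.54%.

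The lower levels were found in both layers of the epithelium. In basal-like cells the summed ratio was 0.383, with 20 of 24 measured members at least 1.5 times lower and 0 higher (15.9% and 39% of all genes). In suprabasal-like cells it was 0.422, with 10 of 17 lower and 0 higher (15.7% and 36.7% of all genes). Epithelial-like cells of the libraries fell into different clusters, however. Of the 5140 Ctrl-D cells 1544 lay in cluster 1, led by Krt15 and Aldh3a1, 1627 in cluster 2, led by Chil4 and Tslp, and 821 in cluster 10, led by Fcgbp and Pyy. Most Eed iKO-D cells, 1686 of 3339, lay in cluster 4, led by Prl8a9, Slc25a21, Hmga2 and Pthlh, where Ctrl-D had 129.

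The size of the difference was not the same in each cluster. In cluster 1, with 1544 and 104 cells, the summed level was 328 and 217 CPM, a ratio of 0.661 (0.599 to 0.727), with 11 of 23 measured members lower and 2 higher (17.5% and 33.1% of all genes). HoxA had a ratio of 0.847 there and HoxC of 0.441. In cluster 4 Hoxa7 was at 90.8 CPM in Ctrl-D and 11.3 CPM in Eed iKO-D, Hoxa5 at 13.8 and 2.44, Hoxc8 at 13.3 and 3.18, and Hoxb7 at 22.1 and 12.1 CPM. The summed ratio in cluster 4 was 0.336, with 15 of 20 measured members lower and 0 higher (14.5% and 42.4% of all genes). Cluster 5, led by Lce3d and Cnfn with 82 and 239 cells, had a summed ratio of 0.341 (0.299 to 0.390). Its ratio was 0.208 for HoxA and 0.540 for HoxB. Of 12 measured members there 10 were lower and 0 higher, and of all 10899 genes 1198 were lower and 4305 higher. In cluster 2, with 1627 and 504 cells, Hoxa7 was at 93.9 and 77.2 CPM, Hoxa5 at 12.4 and 16.1, Hoxc8 at 24.4 and 16.9, and Hoxb7 at 16.8 and 9.78 CPM. The summed ratio in cluster 2 was 0.788, with 5 of 21 lower and 1, Hoxa3 at 4.99 and 13.7 CPM, higher (11.3% and 42% of all genes). There HoxB had a ratio of 0.566, HoxA of 0.918 and HoxC of 0.756, whereas in cluster 4 the ratio was 0.586 for HoxB, 0.152 for HoxA and 0.431 for HoxC.

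Each library held cells of at least 1 female and 1 male animal, since some cells had Xist UMIs, which mark an inactive X chromosome, and others UMIs of the Y-linked genes Ddx3y, Eif2s3y, Kdm5d or Uty. The labels give neither number nor sex. Xist UMIs alone were found in 2652 epithelial-like cells of Ctrl-D and 1754 of Eed iKO-D, 1623 and 544 had Y-linked UMIs only, 232 and 347 had both, and 633 and 694 neither. Cells of one kind can come from several animals or tumours, and sex and animal cannot be told apart.

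In Eed iKO-D the Xist-only epithelial-like cells held far less HoxA than the Y-only cells. Hoxa7 was at 4.19 CPM in Xist-only cells and 48.3 CPM in Y-only cells of Eed iKO-D, 11.5 times higher in the latter (10.2 to 13.05). In Ctrl-D it was at 86.6 CPM in Xist-only cells and 77.4 CPM in Y-only cells. Hoxa5 was at 1.14 and 12.4 CPM in Eed iKO-D and at 14.2 and 8.29 CPM in Ctrl-D. Hoxc8 was at 2.87 and 13.6 CPM in Eed iKO-D and at 33.9 and 24.97 CPM in Ctrl-D. The Xist-only cells of Eed iKO-D were thus the low ones, with the 3 other groups well above them for these genes.

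HoxB showed less of this contrast. Hoxb7 was at 11.2 CPM in Xist-only and 16.6 CPM in Y-only cells of Eed iKO-D, Hoxb4 at 7.18 and 7.14, Hoxb2 at 7.75 and 7.68, and Hoxb9 at 7.25 and 7.099 CPM. Hoxb8, at 1.63 and 7.81 CPM, was the HoxB gene with the widest gap. It was not the only one: of 8 measured HoxB members 3 were at least 1.5 times higher in the Y-only cells and 0 lower. Summed over each cluster, Y-only cells of Eed iKO-D were 8.76 times higher than Xist-only cells for HoxA (8.03 to 9.56), 1.36 times for HoxB and 2.16 times for HoxC. Of 21 measured members 13 were at least 1.5 times higher in the Y-only cells and 0 lower, where all genes measured gave 14.6% and 14.1%. In Ctrl-D the same contrast gave 1 higher and 10 lower of 24 (8.1% and 12.4% of all genes), with a HoxA ratio of 0.808.

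**Figure D3:**
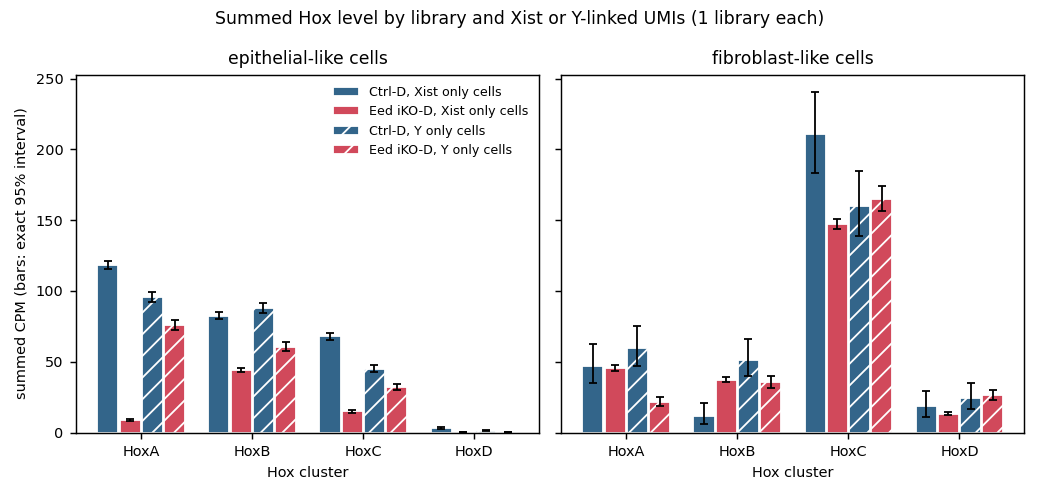
Summed CPM of each Hox cluster in epithelial-like (left) and fibroblast-like cells (right) of Ctrl-D (blue) and Eed iKO-D (red), in cells with Xist UMIs only (plain) and Y-linked UMIs only (hatched), 1 library each with exact 95% intervals. The HoxA bar of Xist-only Eed iKO-D epithelial-like cells, at 8.65 CPM, lies far below the other epithelial HoxA bars, at 75.8 to 118 CPM.

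Set between libraries, the Xist-only cells had a summed Hox ratio of 0.251 (0.244 to 0.259), and 21 of 23 measured members were at least 1.5 times lower in Eed iKO-D with 0 higher (18.2% and 38.7% of all genes). Hoxb3 and Hoxb4 were the 2 that were neither, at 5.15 and 4.43 CPM and at 6.93 and 7.18 CPM. Hoxa9 went from 400 UMIs, or 7.80 CPM, to 6 UMIs, or 0.0703 CPM. The Y-only cells had a ratio of 0.734 (0.706 to 0.764), with 9 of 22 lower, 4 higher and 9 neither (14.5% and 36.5% of all genes). The 4 higher were Hoxa2, Hoxa3, Hoxa6 and Hoxc9. Lower in the Y-only cells too were Hoxa7 at 77.4 and 48.3 CPM, Hoxc8 at 24.97 and 13.6, Hoxb9 at 18.9 and 7.099, Hoxb2 at 16.1 and 7.68, Hoxb8 at 12.1 and 7.81 and Hoxc13 at 3.83 and 0.976 CPM. Cells with neither tag had a ratio of 0.662, and 9 of 20 members were lower and 3 higher (16% and 38.1% of all genes), with HoxA at 0.977 and HoxB at 0.352, and Hoxa7 at 82.2 and 65.1 CPM. The Xist-only cells, 1754 of the 3339 in Eed iKO-D, thus had the ratio farthest from 1 of these groups.

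The contrast held within cluster 4. Its Xist-only cells of Eed iKO-D (1128 cells) had Hoxa7 at 1.57 CPM, Hoxa5 at 0.168, Hoxc8 at 1.12 and Hoxb7 at 10.5 CPM. Its Y-only cells (230) had Hoxa7 at 41.3, Hoxa5 at 10.4, Hoxc8 at 12.0 and Hoxb7 at 15.7 CPM. In the 121 Xist-only cells of Ctrl-D in that cluster Hoxa7 was at 91.2, Hoxa5 at 14.01, Hoxc8 at 13.2 and Hoxb7 at 22.3 CPM. Between libraries 15 of 18 members were lower in these Xist-only cells of cluster 4 and 1 was higher (15% and 41.1% of all genes). HoxA summed to 4.27 CPM in the Xist-only and 64.6 CPM in the Y-only cells of Eed iKO-D. Cluster 3, led by BC037156, Ltf and Wfdc18 and nearly all from Eed iKO-D, showed it too: HoxA summed to 2.11 CPM in 234 Xist-only and 118 CPM in 78 Y-only cells, while HoxB summed to 65.6 and 123 CPM.

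In cluster 2 the contrast was not seen, and HoxA of Y-only over Xist-only cells of Eed iKO-D was 1.01 (0.873 to 1.17). Its Xist-only cells of Eed iKO-D had a HoxA sum of 95.6 CPM and its 124 Y-only cells 96.5 CPM, and the 986 and 383 such cells of Ctrl-D had 137 and 100 CPM. Of the 504 cells of cluster 2 in Eed iKO-D, however, 248 had neither tag. Their median depth was 27142 UMIs, against 25906 UMIs in the Xist-only cells of that cluster and library. How well the tags part the sexes in cluster 2 was not tested, which limits the ratio of 1.01. In cluster 1 the Xist-only cells of Eed iKO-D had a HoxA sum of 60.7 CPM (46.4 to 78.2) and the Y-only cells, 14 in number, 70.9 CPM (43.9 to 108), intervals that overlap. Xist-only cells of Eed iKO-D thus held HoxA at 0.700 of the Ctrl-D level in cluster 2. In clusters 3 and 4 their HoxA sums were 2.11 and 4.27 CPM, beside 4.58 CPM (2.57 to 7.56) in neutrophil-like cells of that library. The median depths were 39810, 55118.5 and 5569 UMIs. Free RNA can be a smaller share of UMIs in deeper cells, so these values cannot decide whether HoxA was expressed there. Clusters were formed with all variable genes, and which animal or tumour each came from is not in the labels, so cluster, animal and sex cannot be told apart.

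**Figure D4:**
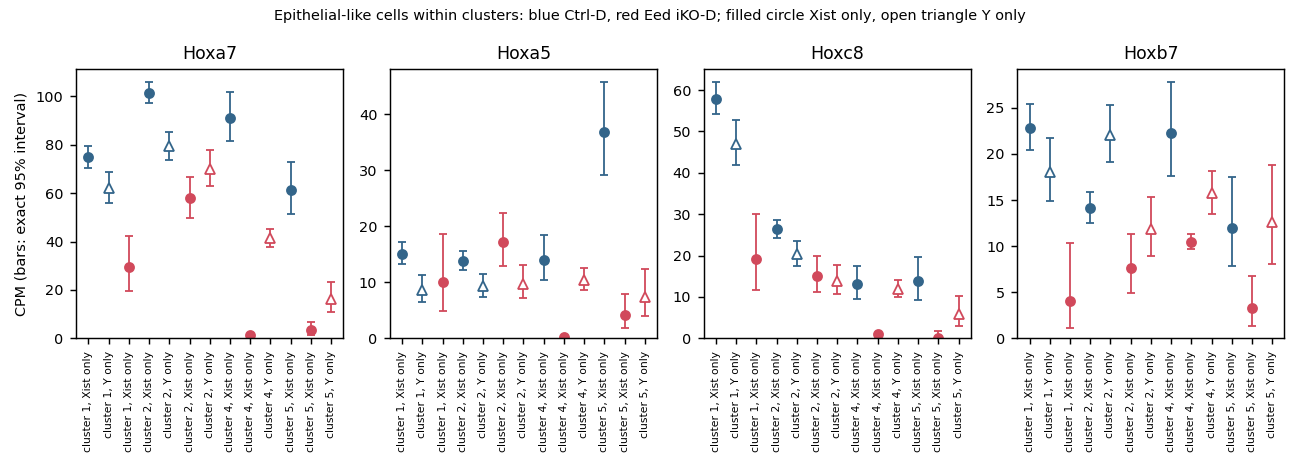
CPM of Hoxa7, Hoxa5, Hoxc8 and Hoxb7 in epithelial-like cells of clusters 1, 2, 4 and 5, split by library (blue Ctrl-D, red Eed iKO-D) and by Xist-only (filled circles) or Y-only cells (open triangles), for groups of at least 40 cells, 1 library each with exact 95% intervals. In cluster 4 Hoxa7 is at 91.2 CPM in Xist-only Ctrl-D cells, 1.57 in Xist-only Eed iKO-D cells and 41.3 CPM in Y-only Eed iKO-D cells.

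Other cell markers moved with the libraries as well. In epithelial-like cells the 13 fibroblast markers, all detected, summed to 43.3 CPM in Ctrl-D and 393 CPM in Eed iKO-D, and the 12 macrophage and monocyte markers to 2526 and 467 CPM. Within Eed iKO-D the fibroblast markers summed to 329 CPM in Xist-only and 296 CPM in Y-only epithelial-like cells, and basal markers to 27043 and 21567 CPM. Their part in the Hox differences was not tested.

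Fibroblast-like cells, which should not express the K14-driven Cre, differed less between the libraries. Their summed Hox level was 288 CPM in Ctrl-D (268 to 309) and 243 CPM in Eed iKO-D (239 to 247), a ratio of 0.844 (0.786 to 0.908). Of 26 measured members 3 were at least 1.5 times lower, 4 higher and 19 neither, and over all 17034 genes 24.1% were lower and 24.9% higher. The 3 lower were Hoxa5, Hoxa10 and Hoxd9. Hoxc8 was at 82.6 and 55.6 CPM, Hoxc9 at 29.8 and 23.7, Hoxc6 at 22.9 and 27.5, Hoxb2 at 15.3 and 15.0, Hoxd8 at 15.3 and 12.3 and Hoxc5 at 15.3 and 17.3 CPM. Hoxa7, which was 4.07 times lower in epithelial-like cells, was at 20.7 and 14.1 CPM here, 1.47 times lower (1.10 to 1.92). Only 290 cells and 792 Hox UMIs stood on the Ctrl-D side, which limits the precision. In parts of the class a larger share of members was called, from 294 to 447 Hox UMIs of Ctrl-D. The summed ratios were 0.821 in tumour-type, 0.764 in adventitial-type, 0.846 in Xist-only and 0.840 in Y-only cells. On simulated counts with counting error alone 18.7% of unchanged genes of the whole class passed 1.5 times, and the parts were not simulated. In tumour-type cells 11 of 24 members were lower and 3 higher (28% and 21.6% of all genes). In adventitial-type cells 5 of 19 were lower and 3 higher (24.3% and 22.4%). In Xist-only cells 7 of 24 were lower and 10 higher (28.2% and 22%), and in Y-only cells 6 of 15 lower and 2 higher (22.5% and 23.7%). The 10 higher in Xist-only cells took in all 7 measured HoxB members. All HoxB genes together had 12 UMIs in the Xist-only cells of Ctrl-D and 1714 in those of Eed iKO-D. These 7 members thus passed the minimum of UMIs through Eed iKO-D, and their single Ctrl-D levels rest on few UMIs.

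The fibroblast-like cells also differed by Xist and Y-linked UMIs, but in another pattern. Hoxc8 was higher in the Y-only cells of Eed iKO-D in both classes. In Eed iKO-D Hoxa9 was at 10.4 CPM in 1679 Xist-only and 1.11 CPM in 284 Y-only cells, Hoxa10 at 10.0 and 0.615, and Hoxc10 at 13.5 and 1.48 CPM. In the same cells Hoxc8 was at 51.3 and 79.5 CPM and Hoxd8 at 10.9 and 20.1 CPM, and Hoxa7 was alike at 14.3 and 12.9 CPM. In Ctrl-D Hoxa10 was at 14.7 and 17.2 CPM in Xist-only and Y-only cells and Hoxc10 at 13.7 and 16.4 CPM, each from 14 to 21 UMIs, and Hoxa9 at 5.88 CPM from 6 UMIs and 18.002 CPM from 22. For these 3 posterior genes the Y-only fibroblast-like cells of Eed iKO-D were the low group. For HoxB the low group was another one: it summed to 11.8 CPM in Xist-only cells of Ctrl-D, from 12 UMIs, and to 51.6, 37.4 and 35.7 CPM in Y-only cells of Ctrl-D and in Xist-only and Y-only cells of Eed iKO-D. Within Eed iKO-D 5 of 25 measured members were at least 1.5 times higher in Y-only cells and 8 lower (10.4% and 13.5% of all genes).

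**Figure D5:**
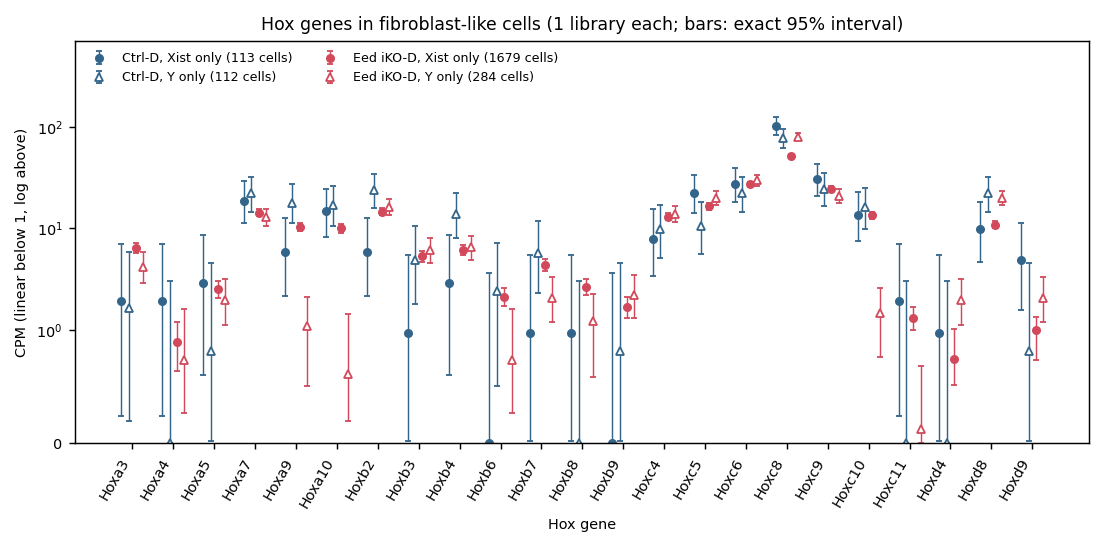
CPM of the Hox genes with at least 50 UMIs in fibroblast-like cells of Ctrl-D (blue) and Eed iKO-D (red), in Xist-only (filled circles) and Y-only cells (open triangles), 1 library each with exact 95% intervals; the axis is linear below 1 and logarithmic above. Hoxa9, Hoxa10 and Hoxc10 of Y-only Eed iKO-D cells lie at 1.11, 0.615 and 1.48 CPM, below the other 3 groups.

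The genes that work with or on the Hox clusters were read from lists drawn from general knowledge of these complexes. Of 9 Hox cofactors (the TALE homeodomain partners of Hox proteins) 4 were at least 1.5 times higher in epithelial-like cells of Eed iKO-D and 0 lower, where 40.2% of all genes were higher and 15.9% lower. Meis3 was at 0.255 and 0.912 CPM and Meis2 at 29.7 and 78.5 CPM, while Pbx4, Pbx2 and Pknox2 were less than 1.5 times apart, at 1.41 and 1.22, 14.03 and 12.7, and 0.754 and 0.712 CPM. Of 12 PRC2 genes 3 were higher and 1 lower (40.2% and 15.9% of all genes). Jarid2, which recruits PRC2, was at 199 and 691 CPM, Aebp2 at 76.2 and 155 and the core subunit Suz12 at 68.6 and 117 CPM. Phf19 was at 0.713 and 0.318 CPM, and the methyltransferase Ezh2 at 85.0 and 58.6 CPM was lower by less than 1.5 times.

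Of 14 PRC1 genes 3 were higher and 0 lower (40.2% and 15.9% of all genes). Phc1 was at 1.90 and 5.67 CPM, Phc2 at 44.5 and 78.8 and Pcgf2 at 7.69 and 12.5 CPM. Cbx6, Pcgf6 and Cbx2 were lower by less than 1.5 times, Cbx6 at 3.74 and 2.65 CPM. Among 14 Trithorax genes and H3K27 demethylases, which oppose Polycomb, 6 were higher and 1 lower (40.2% and 15.9% of all genes), a share of higher genes near that of all genes. Dot1l was at 26.7 and 49.8 CPM, Kmt2d at 14.9 and 27.7 and Ash2l at 35.4 and 60.1 CPM, and Dpy30, a subunit shared by the MLL complexes, at 94.9 and 55.4 CPM. Psip1 at 75.9 and 56.0 CPM and Men1 at 7.02 and 5.72 CPM were less than 1.5 times apart.

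Of 14 upstream regulators of Hox genes 11 were measured, 5 were higher and 0 lower (40.2% and 15.9% of all genes), again near the share of all genes. Rarb, a retinoic acid receptor, was at 0.887 and 6.27 CPM, Aldh1a3, which makes retinoic acid, at 6.88 and 14.4 CPM and Gdf11 at 0.510 and 0.953 CPM. Ctcf, Rara and Rarg were level, at 83.3 and 74.3, 14.02 and 12.7, and 46.9 and 47.7 CPM. Of 17 genes that border the clusters 12 were measured, 1 was higher and 1 lower (40.2% and 15.9% of all genes). Lnpk beside HoxD was at 21.6 and 33.5 CPM and Atp5g2 beside HoxC at 587 and 320 CPM; Skap2 and Snx10 beside HoxA were at 50.6 and 41.4 and at 15.2 and 12.5 CPM, and Cbx5 and Atf2 at 61.3 and 75.0 and at 38.4 and 55.5 CPM.

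Of 12 antisense and intergenic RNAs of the clusters 8 were measured, 4 lower and 1 higher (15.9% and 40.2% of all genes). Halr1, an intergenic RNA beside HoxA, was at 2.48 and 0.145 CPM, Hoxb5os at 1.55 and 0.214 and Hoxd3os1 at 1.04 and 0.0414 CPM. Hoxaas2 was at 0.387 and 0.601 CPM, Gm53 at 9.76 and 13.6 and Hoxb3os at 7.04 and 6.75 CPM. Hoxb3os lies antisense to Hoxb2 and Hoxb3, and whether the counting used strand is not given in the sources used here. Of 56 other homeobox genes that PRC2 is known to mark 28 were measured, 9 higher and 10 lower (40.2% and 15.9% of all genes). Pax9 was at 2.40 and 20.4 CPM and Pitx1 at 29.4 and 114 CPM, and Lhx2, a hair follicle stem cell factor, at 17.7 and 0.684 CPM, Dlx2 at 2.35 and 0.380 and Dlx1 at 1.79 and 0.304 CPM.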

How the data were processed

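Single-cell RNA libraries of 2 groups (Ctrl-D and Eed iKO-D, 1 library each) were read as the deposited count matrices, which hold raw UMI counts per gene and barcode as the authors made them. Cell Ranger is given as 7.1.0 per the file headers, 2.1.0 per the labels' protocols and 8.0 per the submitters' processing notes, with the mm10 genome. Cell Ranger versions differ in whether intronic reads are counted by default, which can move the level of genes with overlapping introns. The members and gene lists were chosen with earlier results of these data known, and the gate thresholds were set after the data were seen.

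Cells with at least 500 genes and at most 15% mitochondrial UMIs were kept. A cell was given a class when its score over that class's markers (log of depth-scaled UMIs, over the 99th percentile) was at least 0.25, led every other class by at least 0.15, rested on at least 3 detected markers, and Gm42418 made up at most 25% of its UMIs. Clusters came from Leiden clustering at resolution 1 on 2000 variable genes, 30 principal components and 15 neighbours. Doublets were not removed: Scrublet marked 129 cells of Ctrl-D but 0 of Eed iKO-D, so it failed in the latter.

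UMIs were summed over the cells of a class and divided by the class total to give CPM. A gene was measured with at least 20 UMIs over both libraries, and counted as higher or lower from 1.5 times after 0.5 UMI was added to each side. Intervals are exact 95% Poisson intervals for CPM, conditional binomial ones for ratios and Clopper-Pearson ones for shares. With 1 library per group no test across samples could be made. Every member was accounted for; of the other lists, the 3 genes with the largest and the 3 with the smallest ratio among those with at least 50 UMIs were named, except that some are not reported here. On simulated counts for 19667 genes of the epithelial comparison, 95.6% of intervals covered the true ratio, 4.04% of unchanged genes passed 1.5 times, and 97.9% of 2-fold changes were recovered. For 16983 genes of the fibroblast comparison these were 96.6%, 18.7% and 90.4%. The simulated counts were Poisson draws from the pooled profile, the kind of error the intervals assume. They do not check variation between cells, animals or tumours. Promoter sequences were taken from RefSeq and gene positions from GENCODE for the same build. Python 3.11.15, numpy 2.4.6, scipy 1.17.1, pandas 2.3.3, scanpy 1.11.5 and matplotlib 3.10.9 were used. Alternatives were other class rules, cell filters, depths, scalings, thresholds and cell subsets.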

Additional observations from a re-analysis of the deposited data

Results flagged for a closer look

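Hoxa3 and Hoxa6 moved in opposite directions between the libraries in epithelial-like cells with Xist UMIs and in those with Y-linked UMIs, and were listed for that reason. The Eed iKO-D over Ctrl-D ratio of Hoxa3 was 0.425 in Xist-only cells and 2.66 in Y-only cells. That of Hoxa6 was 0.158 in Xist-only cells and 3.65 in Y-only cells. Hoxa6 had 61 UMIs in the whole Ctrl-D library and 107 in Eed iKO-D, so both its ratios rest on few UMIs. With 1 library per group the difference was not tested.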

How the results depend on the processing

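The epithelial ratio of summed Hox CPM, 0.398, was below 1 under all alternatives run. It was 0.339 with cells thinned to 2000 UMIs, 0.388 as a mean over cells, 0.307 scaled to the median of all genes, 0.379 with no limit on Gm42418 and 0.410 without Gm42418 in the total. By subset it was 0.383 in basal-like cells, 0.422 in suprabasal-like cells, 0.407 without hair follicle stem-like and hair matrix-like cells, 0.251 in Xist-only cells (0.236 with at least 3 Xist UMIs), 0.734 in Y-only cells (0.775 with at least 3 Y-linked UMIs), 0.662 with neither tag, 0.559 without cluster 4, 0.336 in cluster 4 and 0.788 in cluster 2. Classes from Leiden clusters gave 0.313 for HoxA and 0.515 for HoxB, and thinning gave 0.428 for HoxB and 0.287 for HoxC. The count of lower members, 17, was 10 in suprabasal-like cells, 9 in Y-only cells (7 with at least 3 Y-linked UMIs), 9 with neither tag and 5 in cluster 2. The count of higher members, 0, was 4 with no minimum of UMIs, 4 in Y-only cells at either minimum, 3 with neither tag, 2 with no limit on Gm42418, 1 without cluster 4 and 1 in cluster 2. Hoxa5 reversed to 1.499 in Y-only cells, 1.68 with at least 3 Y-linked UMIs, 1.85 with neither tag and 1.30 in cluster 2, and Hoxc13 to 1.28 in cluster 4. In fibroblast-like cells the 3 lower members became 7 with classes from clusters, 5 in adventitial-type cells (ratio 0.764), 11 in tumour-type cells, 7 in Xist-only cells with 10 higher, and 6 in Y-only cells with 2 higher. The cause was not tested. Of the other epithelial values 172 stayed within their interval and 123 moved beyond it; of the fibroblast values 49 and 14. The alternatives on Gm42418, clusters, cells with neither tag and 3 UMIs were chosen after seeing the data. No paired analysis was possible because each group is 1 library. Depth limits members with few UMIs and, in fibroblast-like cells, the 290 cells of Ctrl-D.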
